A study of Rattus norvegicus with 30 samples.

Results

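Gastric bypass was compared with its own sham operation in the ileum, the last stretch of the small intestine, over every gene that the arrays could name. The comparison used 12 of the 30 arrays of the study, 6 from rats with Roux-en-Y gastric bypass (the RYGB group) and 6 from rats with the sham operation for it (Sham_RYGB). All were male Long-Evans rats of genotype WT, aged 8 to 10 weeks, with no other agent or allele named. The surgical text in the labels describes a midline opening with the stomach exposed, after a liquid diet, and then the stapling used for vertical sleeve gastrectomy (VSG) and the forceps pressure used as its sham. How the bypass and its sham were carried out, how long after surgery tissue was taken and whether intake was matched are not given in the sources used here. The other 3 groups of 6 rats (VSG, Sham_VSG and Sham_VSG_PF, where PF marks a pair-fed sham) entered the model of the spread between rats and a comparison of both operations.

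In gastric bypass a small pouch of stomach is joined to the jejunum, so that food skips most of the stomach and the duodenum and meets bile and pancreatic juice further down. The ileum lies below the join. Its absorptive cells take bile acids back up through the transporter encoded by Slc10a2, and bile acids inside the cell switch on the receptor FXR, which drives the hormone gene Fgf19 and the repressor gene Nr0b2. Bypass changes how much nutrient and which bile acids reach these cells, and rodents with a bypass are known for a remodelled gut lining.

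Each value below is a log2 signal of 1 transcript cluster (the array's probe set for a gene), so a difference of 1 is a 2-fold change. Genes with exactly 1 symbol gave 14557 distinct symbols, the brightest cluster stood for a symbol, and 10918 genes bright enough were tested. The 12 arrays had medians of 3.13 to 3.25 over all clusters and pairwise correlations of 0.952 to 0.977, and the 95% interval of a difference had a median reach to either side of 0.31. The defining ileal genes Slc10a2 (10.09 to 10.73 across the 12 arrays) and Fabp6 (11.84 to 12.11), which carries bile acids inside the cell, were among the bright genes in every array. The mean of the 3 tested colon markers ran from 5.86 to 6.57 in RYGB and from 5.22 to 6.15 in Sham_RYGB, with differences of 0.97 (Best2, adjusted p 0.221), 0.68 (Car1, adjusted p 0.595) and 0.01 (Car4), and that of 3 duodenum markers from 4.86 to 6.55 and from 5.05 to 5.69. Tissue pieces are bulk samples, so fewer cells of a type and less RNA per cell cannot be told apart.

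Some arrays stood apart in markers of other cell types. The mean of 10 fat cell markers lay between 5.56 and 6.32 in RYGB replicates 1, 3 and 6, against 3.70 to 4.06 in the other RYGB arrays and 3.60 to 4.07 in all Sham_RYGB arrays. The mean of 11 B and plasma cell markers lay at 7.03 in RYGB replicate 4 and between 7.05 and 7.85 in Sham_RYGB replicates 1, 2 and 3, and between 4.11 and 4.69 in the remaining 8 arrays. Among single markers, Lpl ran from 4.07 to 6.52 in RYGB and from 3.48 to 4.99 in Sham_RYGB, while Pax5, a B cell transcription factor, ran from 4.05 to 7.08 and from 4.27 to 8.26. Results are therefore also given without the arrays high in fat cell markers (3 RYGB against 6 Sham_RYGB arrays) and over the arrays low in B and plasma cell markers (5 against 3). In both fits, arrays of the other 3 groups past the same limit were left out too. How far either tissue contributed to a result was not tested beyond these values.

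**Figure D1:**
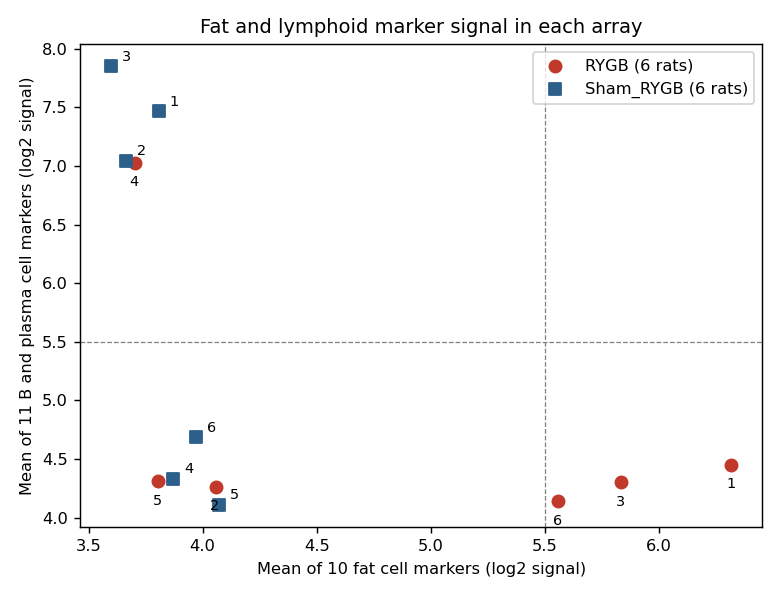
Mean log2 signal of 10 fat cell markers (x axis) and of 11 B and plasma cell markers (y axis) in each of the 12 arrays, numbered by replicate, with dashed lines at 5.5. RYGB replicates 1, 3 and 6 lie to the right, and RYGB replicate 4 with Sham_RYGB replicates 1, 2 and 3 lie at the top.

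Gastric bypass changed 20 genes at an adjusted p below 0.05 (limma, Benjamini-Hochberg over 10918 genes), which is 0.183% of those tested. In RYGB 17 rose (0.156%) and 3 fell (0.0275%). Genes that handle fat (Cidec, Cpt1a, Acsl3, Lpgat1), enzymes that finish protein digestion (Lap3, Ace), a growth factor (Areg), a water and glycerol channel (Aqp3) and the transferrin receptor (Tfrc) were among those that rose. Without adjustment, 1414 genes (13%) had a p below 0.05, 724 higher (6.63%) and 690 lower (6.32%). For 77 genes (0.705%) the 6 RYGB and 6 Sham_RYGB values did not overlap, 50 with RYGB higher (0.458%) and 27 with RYGB lower (0.247%), and 16 of the 20 were among them. Over all genes the median difference was -0.01, with 5246 of 10918 (48%) higher in RYGB.

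**Figure D2:**
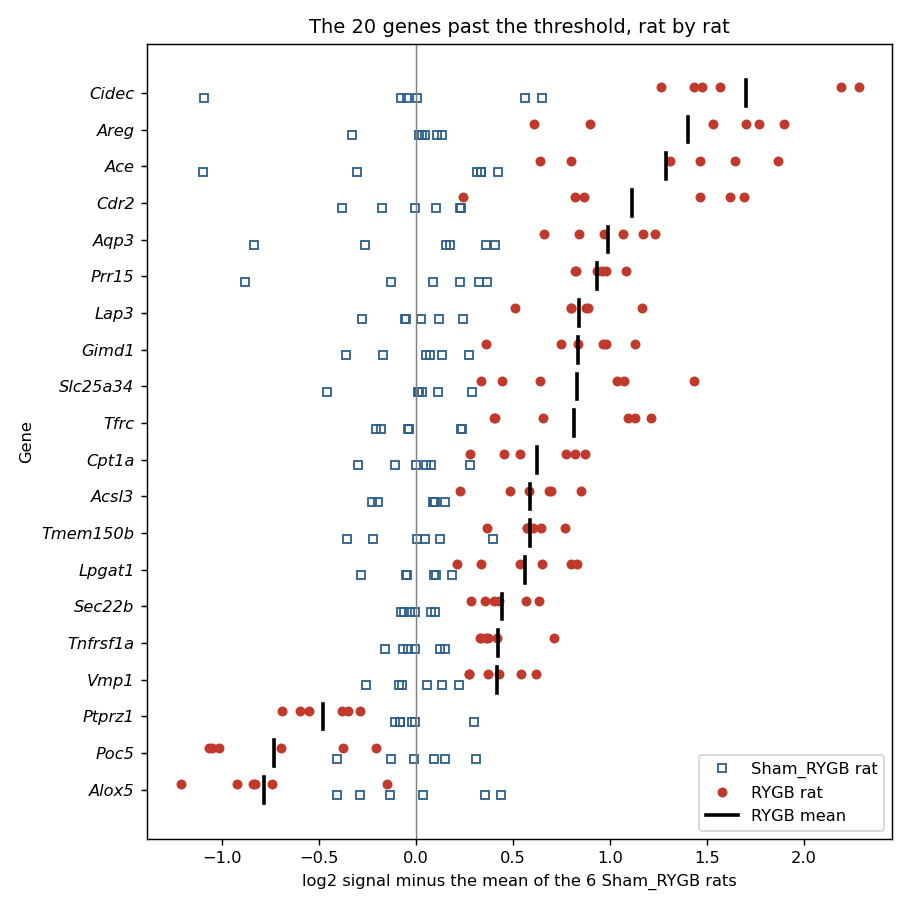
Log2 signal of the 20 genes past the threshold in each rat, as the distance from the Sham_RYGB mean of the gene (x axis), with RYGB rats as filled circles, Sham_RYGB rats as open squares and the RYGB mean as a bar. In 16 of the 20 genes no circle overlaps the range of the squares, and Cidec shows the largest difference, 1.70.

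The number of calls depended on which arrays set the spread and on which arrays were compared. Fitted on the 12 arrays alone, 0 genes passed (limma, lowest adjusted p 0.0622, 1225 genes with an unadjusted p below 0.05). All 20 kept their sign in each setting tried, except that the filter at the 50th percentile left only 18 of them to test, all 18 with the same sign. Cidec and Lap3 passed in all 12 fits that left out 1 of the 12 arrays. Each of the others passed in fewer of these fits, from 3 (Tmem150b) to 10 (Areg, Cdr2 and Tfrc). Alox5 and Ptprz1 passed in 4, Ace in 5, and Aqp3, Cpt1a, Lpgat1 and Poc5 in 6. Without RYGB replicate 6 the count was 2, without Sham_RYGB replicate 3 it was 3, and without RYGB replicate 4 it was 41. It was 10 without RYGB replicate 2, 12 without Sham_RYGB replicate 1 and 8 without Sham_RYGB replicate 2. Without the arrays high in fat cell markers (RYGB replicates 1, 3 and 6 and VSG replicate 1), 1 gene passed and it was none of the 20, although all 20 then had an unadjusted p below 0.05. With the fat cell marker mean as a covariate, which kept all 12 arrays, 1 gene passed and it was 1 of the 20. The cause of these changes in count was not tested.

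Cidec, which encodes a protein that fuses lipid droplets and is abundant in fat cells, rose most of the 20 genes. Its 6 RYGB values had a lowest of 7.53, a median of 7.79 and a highest of 8.55, and its Sham_RYGB values 5.17, 6.25 and 6.92. Every RYGB rat lay above every sham rat, with RYGB replicates 3 and 6 highest and Sham_RYGB replicate 3 lowest. The means were 7.97 ± 0.43 and 6.27 ± 0.62 (SD, n = 6 each), a 3.25-fold rise (log2 difference 1.70, 95% interval 1.19 to 2.21, adjusted p 0.0011). Without the arrays high in fat cell markers the difference was 1.49, and over the arrays low in B and plasma cell markers it was 1.38.

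The letters before the start site are shown for 3 of the genes that rose, as examples of matches to the motifs searched. They are the 250 bases before the start site in RefSeq on build GRCr8, all on the minus strand, for Cidec at chr4:148137116-148137365, for Areg at chr14:17265642-17265891 and for Slc25a34 at chr5:159219893-159220142. Capitals mark, in Cidec, the AP-1 letters (TGANTCA), in Areg the cyclic AMP response element (TGACGTCA) and a TATA box (TATAAA), and in Slc25a34 a nuclear receptor core motif (AGGTCA, here on the other strand) and a CCAAT box (CCAAT, also on the other strand).
Cidec: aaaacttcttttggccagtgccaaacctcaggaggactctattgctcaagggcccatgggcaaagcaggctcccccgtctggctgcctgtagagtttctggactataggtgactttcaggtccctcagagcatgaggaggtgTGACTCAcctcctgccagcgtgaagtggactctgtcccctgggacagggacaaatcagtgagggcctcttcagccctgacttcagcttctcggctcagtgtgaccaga
Areg: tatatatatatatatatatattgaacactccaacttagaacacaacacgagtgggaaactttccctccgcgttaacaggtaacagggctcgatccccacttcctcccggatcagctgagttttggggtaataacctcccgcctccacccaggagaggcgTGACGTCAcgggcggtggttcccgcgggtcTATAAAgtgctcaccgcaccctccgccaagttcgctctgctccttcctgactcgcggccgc
Slc25a34: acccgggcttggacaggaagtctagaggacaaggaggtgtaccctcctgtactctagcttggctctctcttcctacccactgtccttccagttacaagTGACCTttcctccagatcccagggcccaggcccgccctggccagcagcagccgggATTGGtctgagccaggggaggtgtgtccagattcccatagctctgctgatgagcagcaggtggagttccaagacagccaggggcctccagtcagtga
Windows of 300 bases, 250 before and 50 after the start, were searched on both strands, and 19 of the 20 genes had one. The AP-1 letters were searched with any base at the N. They stood in the windows of Cidec (TGACTCA, 108 bases before the start) and Tmem150b (TGAATCA). With any base allowed there, 7.33% of all 27457 windows held them. The cyclic AMP element stood in Areg (91 bases before) and in 1.91% of windows, TATAAA in Ace, Aqp3 and Areg and in 14.3%, and the core motif in Gimd1, Lpgat1 and Slc25a34 and in 15.7%. The E-box CACGTG stood in Lap3 and in 6.65% of windows, and CCAAT in 9 of the 19 and in 37.7%. The full repeats read by PPAR-alpha (a direct repeat of the core motif with 1 base between, in 0.0583% of windows) and by FXR (an inverted repeat, in 0.0255%) stood in 0 of the 19, and the HNF4 core CAAAGTCCA in Tmem150b and 0.375% of windows. A match is a description of letters only.

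Further genes of fat handling rose less steeply. Cpt1a, whose enzyme lets long-chain fatty acids into mitochondria for burning, ran from 7.10 (median 7.48) to 7.70 in RYGB and from 6.53 (median 6.85) to 7.10 in Sham_RYGB, a rise of 0.62 (95% interval 0.36 to 0.88, adjusted p 0.0285). The groups touched only at 7.10, where RYGB replicate 1 met Sham_RYGB replicate 6. Acsl3, an enzyme that activates fatty acids at the endoplasmic reticulum and on lipid droplets, ran from 7.92 (median 8.32) to 8.54 and from 7.46 (median 7.78) to 7.84, with a difference of 0.59 (0.36 to 0.82, adjusted p 0.023). Lpgat1, which puts acyl chains on lysophospholipids, ran from 8.23 (median 8.61) to 8.85 and from 7.73 (median 8.04) to 8.20, with a difference of 0.56 (0.32 to 0.80, adjusted p 0.0348). Neither Acsl3 nor Lpgat1 overlapped between the groups. Slc25a34, a member of the mitochondrial carrier family, ran from 4.95 (median 5.45) to 6.04 and from 4.15 (median 4.63) to 4.90, a 1.78-fold rise (0.83, 0.50 to 1.16, adjusted p 0.0234). Its highest RYGB value was that of replicate 2, an array low in both marker groups.

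The lists of fat genes leaned the same way. In fat uptake and chylomicron assembly, the packing of dietary fat into lipoproteins, all 18 tested members had a higher RYGB mean and 12 had an unadjusted p below 0.05, with 0 past the threshold and a median of 0.40. In mitochondrial fatty acid oxidation all 19 were higher, 1 past the threshold (Cpt1a), with a median of 0.24. In lipid droplets and lipolysis all 10 were higher, 1 past the threshold (Cidec), with a median of 0.21. These lists were drawn up with earlier results of these arrays known, and the median over all genes was -0.01. Between VSG and Sham_VSG 13 of 18, 11 of 19 and 7 of 10 members were higher (medians 0.15, 0.02 and 0.08). Sham_RYGB was higher than Sham_VSG in 5 of 18, 0 of 19 and 5 of 10 (medians -0.15, -0.14 and -0.01). Over all genes the median between these shams was -0.02. How far a low Sham_RYGB level entered the RYGB differences was not tested. With the fat-marker-high arrays left out the 3 medians of RYGB minus Sham_RYGB were 0.39, 0.25 and 0.23. Over the arrays low in B and plasma cell markers they were 0.25, 0.10 and 0.23, and without Sham_RYGB replicate 3 they were 0.28, 0.16 and 0.21. In peroxisomal and omega oxidation 9 of 11 were higher (median 0.22), against 5 of 14 in the electron transport chain (median -0.03) and 9 of 15 in the tricarboxylic acid cycle (median 0.03), with 0 past the threshold in any. The peroxisomal median was 0.12 once the fat-marker-high arrays were left out and 0.10 over the arrays low in B and plasma cell markers, where the tricarboxylic acid median was -0.07. Over the arrays low in both marker groups 5 of 11 peroxisomal genes were higher, with a median of -0.01. The electron transport median turned to 0.05 when each array was centred on its own median, which moved the median of all genes from -0.01 to 0.07.

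Creb3l3, a membrane-bound transcription factor of liver and gut that drives apolipoprotein genes, missed the threshold but did not overlap. It ran from 8.65 (median 9.02) to 9.56 in RYGB and from 6.68 (median 8.04) to 8.54 in Sham_RYGB, a difference of 1.17 (0.62 to 1.72, adjusted p 0.0706). Its exact permutation p of 0.0022 is the smallest that all splits of the 12 arrays allow. Any gene without overlap gets this value, so it adds nothing to the lack of overlap. Apoc2, the activator of lipoprotein lipase, differed by 0.60 (adjusted p 0.0807, 5 of 6 RYGB values above the highest sham value). Apoa4, a chylomicron apolipoprotein, differed by 0.85 (adjusted p 0.165) but by 0.33 over the arrays low in B and plasma cell markers and 0.52 without Sham_RYGB replicate 3, whose 9.01 lay below the other shams. Slc22a5, the carnitine carrier that the burning of fat depends on, did not overlap either (7.75 to 8.20 against 6.50 to 7.65), with a difference of 0.68 (adjusted p 0.138).

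Of the 14 tested genes that PPAR-alpha, a fatty acid receptor, is known to drive in other pathways, 9 were higher, 5 lower and 2 (Aqp3 and Slc25a34) past the threshold. Their median was 0.22, and 0.12 over the arrays low in B and plasma cell markers. Pdk4, which holds back glucose burning, ran from 6.14 (median 7.29) to 8.54 in RYGB and from 4.59 (median 5.77) to 6.66 in Sham_RYGB, with 4 RYGB rats above all shams and a difference of 1.77 (0.89 to 2.65, adjusted p 0.0833). Angptl4, a secreted inhibitor of lipoprotein lipase, differed by 1.39 (adjusted p 0.21) and by 0.81 over the arrays low in B and plasma cell markers. Pck1, the gatekeeper enzyme of gluconeogenesis, ran from 7.44 (median 8.07) to 8.98 and from 4.68 (median 6.25) to 7.51, with a difference of 1.86 (0.85 to 2.87, adjusted p 0.129). The gluconeogenesis and glutamine list, which holds Pck1, had 8 of 10 higher and a median of 0.16 (0.02 over the arrays low in B and plasma cell markers). Vnn1, a PPAR-alpha target named after its values were seen, was the lowest of the PPAR-alpha list at -0.60.

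The gene with the smallest p was Lap3, a leucine aminopeptidase of the cytosol that trims short peptides to amino acids. Its RYGB values had a lowest of 9.62, a median of 9.95 and a highest of 10.27, and its Sham_RYGB values 8.83, 9.10 and 9.35. The means were 9.95 ± 0.21 and 9.11 ± 0.18 (SD, n = 6 each), a 1.79-fold rise (0.84, 0.60 to 1.08, adjusted p 0.000687). The difference stayed between 0.73 and 0.83 without the arrays high in fat cell markers, over those low in B and plasma cell markers, and without Sham_RYGB replicate 3.

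Ace, whose enzyme sits on the brush border and clips pairs of amino acids from peptide ends, ran from 8.44 (median 9.19) to 9.67 in RYGB and from 6.70 (median 8.12) to 8.22 in Sham_RYGB. All RYGB rats lay above all shams, and Sham_RYGB replicate 2 was lowest. Ace rose 2.44-fold (1.29, 0.73 to 1.84, adjusted p 0.0348). Tmprss15 encodes enteropeptidase, which activates trypsinogen in the duodenum. It was dim in all shams (1.45 to 2.31) and spread widely in RYGB, at 1.87 and 2.19 in replicates 2 and 6 and at 5.01 and 5.78 in replicates 3 and 5. Its difference of 1.71 missed the threshold (adjusted p 0.0814). Its mean was 3.64 in RYGB and 1.93 to 2.20 in every other group, so only the RYGB values lifted it past the filter at 2.33. The filter thus favoured a higher RYGB mean for this gene. Across the peptidase list all 11 tested members, Tmprss15 among them, had a higher RYGB mean and 2 passed (Lap3 and Ace). The median was 0.28, falling to 0.10 over the arrays low in B and plasma cell markers and 0.19 without Sham_RYGB replicate 3.

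Other digestion and uptake lists had smaller shifts that depended on which arrays were used. The brush border structure list was higher in 12 of 12 members (median 0.25, 0.11 over the arrays low in B and plasma cell markers), with Eps8, an actin regulator of microvilli, at 0.49 (adjusted p 0.221). The sugar list was higher in 7 of 7 (median 0.22, but -0.02 over the arrays low in B and plasma cell markers), and its glucose carrier Slc5a1 differed by 0.12 (-0.29 to 0.53). Amino acid and peptide transporters were higher in 11 of 12 (median 0.16), among them Slc15a1, the peptide carrier, at 0.22 (adjusted p 0.45, and 0.11 over those arrays). No member of these 3 lists passed the threshold. Between VSG and Sham_VSG 11 of 12 brush border genes were higher (median 0.10), 7 of 7 sugar genes (median 0.37) and 9 of 12 transporters (median 0.16). The mean of 8 enterocyte markers ran from 9.94 to 10.64 in RYGB and from 9.69 to 10.57 in Sham_RYGB, and that of 6 ileal absorptive markers from 9.63 to 10.00 and from 9.05 to 9.98, with Sham_RYGB replicate 3 lowest in the latter.

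**Figure D3:**
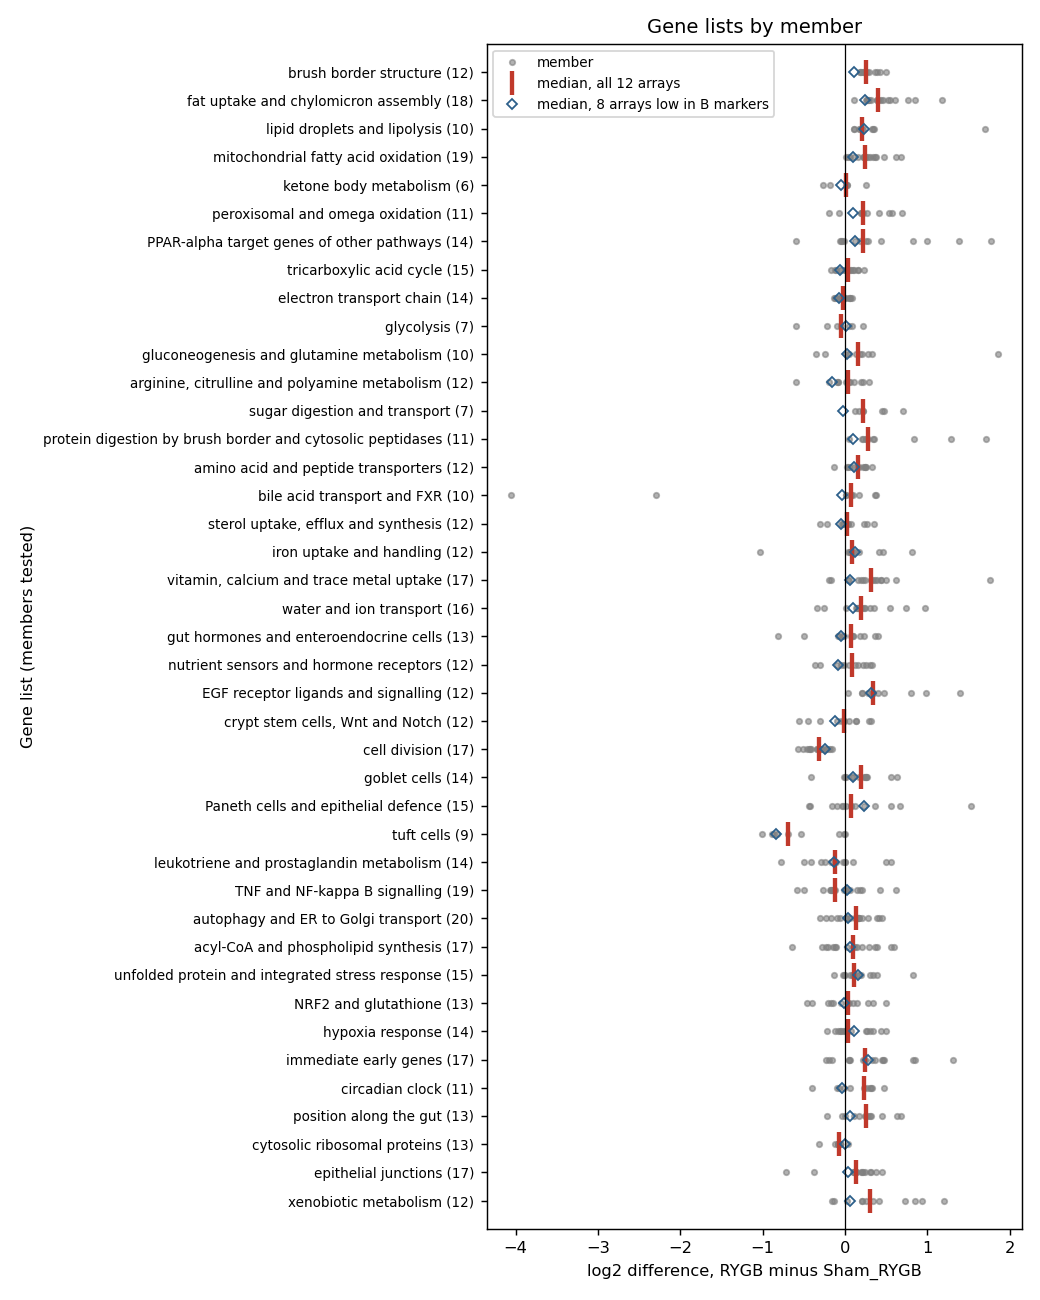
Log2 difference RYGB minus Sham_RYGB (x axis) of each tested member (grey) of 41 gene lists (y axis, members tested in brackets), with the list's median over all 12 arrays (bar) and over the 8 arrays low in B and plasma cell markers (diamond). All 18 members of fat uptake and all 12 of the EGF receptor list lie above 0, all 17 of cell division lie below it, and Fgf19 lies far to the left at -4.06.

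Areg encodes amphiregulin, a ligand of the EGF receptor that drives growth and repair of the epithelium. Its RYGB values had a lowest of 5.02, a median of 6.03 and a highest of 6.31, and its Sham_RYGB values 4.08, 4.45 and 4.54. The shams were tightly grouped apart from the low value of replicate 3, and no rat overlapped. Areg rose 2.64-fold (1.40, 0.87 to 1.94, adjusted p 0.023), and by 1.5 without the arrays high in fat cell markers and 1.31 over the arrays low in B and plasma cell markers, with the call lost in both subsets (adjusted p 0.123 and 0.252). The sister ligands Hbegf (5.59 to 7.28 against 4.36 to 5.75, difference 0.98, adjusted p 0.138) and Ereg (5.45 to 6.69 against 4.86 to 5.78, difference 0.80, adjusted p 0.165) each had 5 of 6 RYGB values above all shams. The receptor gene Egfr differed by 0.40 (adjusted p 0.253) and by 0.23 without the fat-marker-high arrays. All 12 tested members of the EGF receptor list were higher, 1 of them past the threshold, with a median of 0.34 that stayed at 0.32 in both array subsets.

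Genes switched on within minutes by growth and stress signals lay higher in 14 of 17 cases (median 0.24), with 0 past the threshold and 9 at an unadjusted p below 0.05. Fosb, a partner in the AP-1 factor, ran from 5.39 (median 5.96) to 6.83 in RYGB and from 3.44 (median 4.88) to 5.5 in Sham_RYGB (difference 1.31, adjusted p 0.15). Dusp1, a phosphatase that ends MAP kinase signals, differed by 0.84 (0.43 to 1.26, adjusted p 0.0807), with 5 of 6 RYGB values above all shams. Jun and Junb, further AP-1 parts, differed by 0.45 and 0.47. Time from death to freezing is not given in the sources used here.

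Cell division genes leaned the other way: all 17 tested members had a lower RYGB mean, with a median of -0.32, 6 at an unadjusted p below 0.05 and 0 past the threshold. Between VSG and Sham_VSG 0 of the 17 were higher too, with a median of -0.19. Mcm6, part of the helicase that opens DNA for copying, ran from 5.96 to 7.06 in RYGB and from 6.49 to 7.46 in Sham_RYGB (difference -0.51, adjusted p 0.28, and -0.29 over the arrays low in B and plasma cell markers). Cdk1, the kinase that starts mitosis, differed by -0.44 (adjusted p 0.22). The median was -0.24 over the arrays low in B and plasma cell markers and -0.28 without Sham_RYGB replicate 3. Lgr5 and Ascl2, markers of crypt stem cells, differed by -0.55 (adjusted p 0.299) and -0.45 (adjusted p 0.286), with overlapping values. Ascl2 stood at -0.24 without the fat-marker-high arrays and at -0.78 over the arrays low in B and plasma cell markers. In the whole stem cell, Wnt and Notch list 5 of 12 were higher.

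Among carriers of water, metal and vitamins, Aqp3, a channel for water and glycerol in the basal membrane, ran from 8.46 (median 8.81) to 9.03 in RYGB and from 6.96 (median 7.96) to 8.21 in Sham_RYGB. No rat overlapped, and Aqp3 rose 1.99-fold (0.99, 0.57 to 1.41, adjusted p 0.0313). The water channels Aqp11 (8.52 to 8.78 against 7.57 to 8.46, difference 0.54, adjusted p 0.15, and 0.26 over the arrays low in B and plasma cell markers) and Aqp1 (difference 0.73, adjusted p 0.226, and 0.39 in that subset) did not pass. In all, 14 of 16 water and ion genes were higher (median 0.19), and 10 of 16 in that subset (median 0.09).

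Tfrc encodes the transferrin receptor, by which dividing and iron-hungry cells take up iron from blood. It ran from 8.37 (median 8.85) to 9.18 in RYGB and from 7.76 (median 7.93) to 8.21 in Sham_RYGB, a 1.76-fold rise (0.82, 0.50 to 1.13, adjusted p 0.023). The 3 highest RYGB values, 9.10, 9.18 and 9.07, were those of replicates 1, 3 and 6, the arrays high in fat cell markers, and without them the difference was 0.49. No other iron gene passed. Heph, the ferroxidase of iron export, differed by 0.41 (adjusted p 0.294), and the exporter Slc40a1 by 0.46 (adjusted p 0.345, and 0.89 without the arrays high in fat cell markers), where RYGB replicate 5 stood at 6.33 and the other RYGB rats at 4.47 to 5.14. The iron list had a median of 0.08, with 11 of 12 higher. The exception, named after its values were seen, was Hamp, the gene of the iron hormone hepcidin, at 2.77 ± 1.12 in RYGB and 3.8 ± 1.49 in Sham_RYGB (SD, n = 6 each), a difference of -1.03 (-2.60 to 0.54, limma adjusted p 0.564).

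S100g, the calcium carrier calbindin-D9k of absorptive cells, had one of the larger differences. It ran from 8.38 (median 11.30) to 11.75 in RYGB and from 7.75 (median 9.07) to 9.56 in Sham_RYGB. In RYGB 5 rats lay above all shams and replicate 1 lay within them, and the difference of 1.76 (0.87 to 2.64) missed the threshold (adjusted p 0.0921). It differed by 1.75 (0.86 to 2.63, adjusted p 0.605) between VSG and Sham_VSG too, and the difference between both operations was 0.01 (-1.24 to 1.27).

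Of the other genes that rose, Sec22b belongs to the machinery that fuses vesicles between endoplasmic reticulum and Golgi. It ran from 7.56 (median 7.69) to 7.91 in RYGB and from 7.20 (median 7.26) to 7.38 in Sham_RYGB, a narrow but separate shift (0.44, 0.27 to 0.62, adjusted p 0.0234). Vmp1, a membrane protein needed to build autophagosomes, rose by 0.42 (0.25 to 0.58, adjusted p 0.023; 8.41 to 8.75 against 7.88 to 8.36). Tmem150b, a membrane protein tied to autophagy, rose by 0.59 (0.33 to 0.84, adjusted p 0.0348), with the highest sham at 7.83 just above the lowest RYGB value of 7.80. In the autophagy and ER to Golgi list 15 of 20 were higher, 2 past the threshold, with a median of 0.14 (0.03 over the arrays low in B and plasma cell markers).

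Tnfrsf1a, the main receptor for tumour necrosis factor, rose by 0.42 (0.25 to 0.59, adjusted p 0.0235). In RYGB 5 rats lay within 8.60 to 8.69 and replicate 6 at 8.98, all above the shams (8.11 to 8.42). The TNF and NF-kappa B list as a whole had 8 of 19 higher and a median of -0.13, which was -0.04 without Sham_RYGB replicate 3 and turned to 0.03 (10 of 19 higher) over the arrays low in B and plasma cell markers. Cdr2, a coiled-coil protein known as an autoantigen in cerebellar degeneration, rose 2.17-fold (1.12, 0.69 to 1.54, adjusted p 0.023). Its RYGB values had a lowest of 6.71, a median of 7.64 and a highest of 8.16 against 6.09, 6.52 and 6.70 in the shams, so that replicate 1 of RYGB lay only just above them. Prr15 (8.38 to 8.65 against 6.69 to 7.93) rose 1.91-fold (0.93, 0.55 to 1.31, adjusted p 0.0235). Gimd1, named for a GTPase domain (5.34 to 6.11 against 4.62 to 5.25), rose 1.78-fold (0.84, 0.51 to 1.16, adjusted p 0.023).

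The 3 genes that fell were Alox5, Poc5 and Ptprz1. Alox5 encodes the lipoxygenase that begins leukotriene synthesis in mast cells, other leukocytes and tuft cells. Its RYGB values had a lowest of 4.33, a median of 4.71 and a highest of 5.39, and its Sham_RYGB values 5.13, 5.49 and 5.98. Only RYGB replicate 5 reached into the sham range. Alox5 fell by 0.78 (95% interval -1.12 to -0.44, adjusted p 0.0348). The difference was -0.58 once the fat-marker-high arrays were left out and -0.70 over those low in B and plasma cell markers. Over the arrays low in both marker groups (2 RYGB against 3 Sham_RYGB) it was -0.41. Alox5 kept its call in 4 of the 12 fits that left out 1 array. Its helper protein gene Alox5ap differed by -0.50 (adjusted p 0.233) and by -0.28 without the fat-marker-high arrays.

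Poc5, a centriole protein, fell by 0.73 (-1.04 to -0.43, adjusted p 0.0237), with 4 of 6 RYGB values (3.55 to 4.41) below the lowest sham (4.20 to 4.92). Ptprz1, a receptor phosphatase best known from glia, fell by 0.48 (-0.69 to -0.27, adjusted p 0.0348). Its values were among the dimmest tested (2.01 to 2.42 in RYGB, 2.60 to 3.00 in Sham_RYGB), close to the filter at 2.33, and no rat overlapped. The mean of 9 enteric neuron and glia markers ran from 3.83 to 4.33 in RYGB and from 4.05 to 4.46 in Sham_RYGB.

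Tuft cells, the taste-like sentinels of the epithelium, and mast cells are both known to express Alox5. The tuft cell list lay lower, as did a mixed list of mast cell, eosinophil and neutrophil markers. All 9 tested tuft cell genes had a lower RYGB mean, 6 with an unadjusted p below 0.05 and 0 past the threshold, with a median of -0.69. Their differences ran from -1.01 to near 0, and 3 of the 9 turned positive when arrays were centred. Pou2f3, the factor that specifies tuft cells, ran from 3.83 (median 4.51) to 5.53 in RYGB and from 4.85 (median 5.30) to 5.92 in Sham_RYGB (difference -0.89, adjusted p 0.138).
Its lowest RYGB values, 3.83, 3.85 and 4.24, were those of replicates 1, 3 and 6, and without these arrays, which were high in fat cell markers, the difference was -0.34. The list median was then -0.27, and -0.83 over the arrays low in B and plasma cell markers. The ion channel Trpm5, the succinate receptor Sucnr1 and the G-protein regulator Rgs13 differed by -0.69, -0.87 and -0.82, and by -0.27, -0.97 and -0.20 without those 3 arrays.
The mean of 8 mast cell, eosinophil and neutrophil markers was 4.24 ± 0.13 in RYGB (4.06 to 4.40) and 4.68 ± 0.23 in Sham_RYGB (4.38 to 4.96, SD, n = 6 each), with all 8 lower. The differences ran from -1.07 (Siglec5) to -0.12 (Ms4a2), with a median of -0.35. Without the fat-marker-high arrays 2 of the 8 were higher and the median was -0.38. The list does not separate mast cells from the other 2 cell types. The part of these cells in the lower Alox5 signal was not tested.

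The largest difference among all genes tested was that of Fgf19, the bile acid hormone of the ileum that is called Fgf15 in the mouse. Its RYGB values were 3.04, 4.84, 4.26, 5.11, 7.82 and 5.83 in replicates 1 to 6, with a median of 4.98. Its Sham_RYGB values were 9.53, 6.26, 10.70, 10.93, 10.55 and 7.27, with a median of 10.04. In RYGB 5 rats lay below every sham, and the RYGB rat at 7.82 lay above the 2 lowest shams. The means were 5.15 ± 1.61 and 9.21 ± 1.98 (SD, n = 6 each), a difference of -4.06 (-6.29 to -1.82), or 16.6-fold more signal in the shams. With this spread it missed the threshold (adjusted p 0.134, unadjusted p 0.000876, exact permutation p 0.0087). It was -3.28 once the fat-marker-high arrays were left out, -4.43 over those low in B and plasma cell markers and -3.76 without Sham_RYGB replicate 3.

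Nr0b2, the FXR-driven repressor also called SHP, had the next largest difference of the bile acid list. It ran from 3.78 (median 5.00) to 6.65 in RYGB and from 4.93 (median 7.77) to 8.79 in Sham_RYGB (difference -2.29, -4.10 to -0.48, adjusted p 0.275, exact permutation p 0.013). The rats followed the order of Fgf19 in part: in RYGB replicate 5 was highest and replicate 1 lowest for both genes, and in Sham_RYGB replicate 4 was highest and replicate 2 lowest for both. Bile acid carriers had no such difference. Slc10a2, the uptake carrier, differed by 0.07 (-0.26 to 0.40, exact permutation p 0.602) and Fabp6, the carrier inside the cell, by 0.01 (-0.10 to 0.13, exact permutation p 0.805). In the bile acid and FXR list 8 of 10 members were higher, the 2 exceptions being Fgf19 and Nr0b2, and the median was 0.07. Over the arrays low in B and plasma cell markers 3 of 10 were higher and the median turned to -0.04.

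The same genes spread as widely in the groups of the other operation. Fgf19 averaged 9.60 ± 2.23 in VSG, 9.25 ± 2.00 in Sham_VSG and 7.34 ± 2.16 in Sham_VSG_PF (SD, n = 6 each), and its lowest value in these groups was 4.40. Nr0b2 averaged 7.48 ± 2.30, 7.17 ± 1.75 and 5.5 ± 1.37, the last close to its 5.01 ± 1.09 in RYGB. The VSG difference was 0.34 (-1.89 to 2.57) for Fgf19 and 0.31 (-1.50 to 2.12) for Nr0b2. The difference between both operations' effects was -4.40 (-7.56 to -1.24, adjusted p 0.844) and -2.60 (-5.16 to -0.04, adjusted p 0.851). Whether the rats had eaten before sampling is not given in the sources used here.

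**Figure D4:**
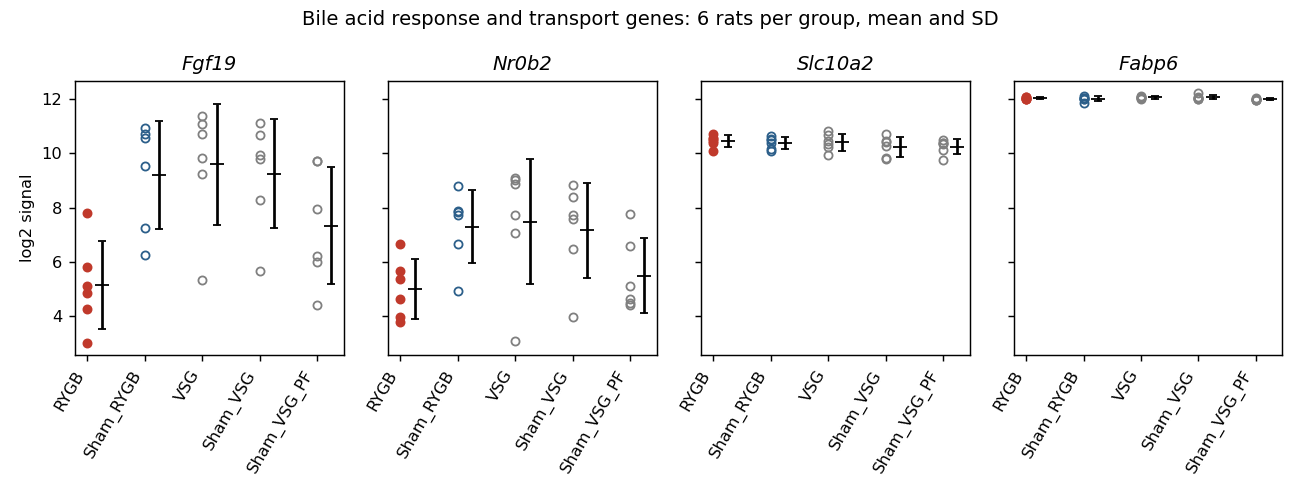
Log2 signal (y axis) of Fgf19, Nr0b2, Slc10a2 and Fabp6 in the 5 groups (x axis), 6 rats each as circles, with the mean and SD beside them. Fgf19 and Nr0b2 are low in RYGB and spread over several log2 units in each group, and Slc10a2 and Fabp6 stay between 9.77 and 12.21 in all 30 rats.

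Among further lists, xenobiotic metabolism had 10 of 12 higher (median 0.30, and 0.05 over the arrays low in B and plasma cell markers). Cyp3a9, a drug- and steroid-oxidising enzyme, differed by 0.93 (adjusted p 0.233) and Sult1b1, a sulphotransferase, by 0.72 (adjusted p 0.231), which were 0.36 and 0.39 in that subset and 0.06 and 0.02 over the arrays low in both marker groups. Epithelial junction genes were higher in 15 of 17 (median 0.13, but 0.03 with 10 of 17 over the arrays low in B cell markers and -0.04 over the arrays low in both): Cldn2, a pore-forming claudin, by 0.38 (adjusted p 0.148) and Cldn4 by 0.45 (adjusted p 0.222), while Cldn8, a sealing claudin, differed by -0.72 (adjusted p 0.254). Gut hormone genes were higher in 7 of 13 (median 0.08, turning to -0.05 with 5 of 13 over the arrays low in B cell markers), with Pyy, the satiety peptide of ileal endocrine cells, at 0.36 (0.08 to 0.64, adjusted p 0.27, and 0.21 without the fat-marker-high arrays). Goblet cell genes were higher in 12 of 14 (median 0.20, and 0.10 over the arrays low in B cell markers). Among them Spink4, a goblet cell protease inhibitor, differed by 0.63 (adjusted p 0.357). Ribosomal protein genes were higher in 1 of 13 (median -0.07), but in 7 of 13 when arrays were centred, so they have no settled direction. None of these 5 lists had a member past the threshold.

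Several genes outside these lists did not overlap between the groups without passing the threshold. Among the higher ones, Plat, the tissue plasminogen activator, ran from 7.67 to 8.77 in RYGB and from 6.56 to 7.62 in Sham_RYGB (difference 0.88, adjusted p 0.148), and Themis3 from 6.42 to 7.17 and from 4.99 to 6.25 (0.87, adjusted p 0.134). Among the lower ones, Cenpp, a centromere protein, ran from 2.82 to 4.47 and from 4.47 to 4.95, meeting at 4.47 to 2 decimals (difference -0.99, adjusted p 0.126). Slc4a11, a membrane transporter of protons and water, differed by -0.74 (adjusted p 0.148), Aspa, which splits acetylaspartate, by -0.57 (adjusted p 0.0814) and Rev1, a polymerase that copies past DNA damage, by -0.50 (adjusted p 0.0807).

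The bypass effect was set against the sleeve effect, each taken from its own sham. No gene differed between both effects at an adjusted p below 0.05 (limma, 0 of 10918, 0%, lowest adjusted p 0.406), and 624 (5.72%) had an unadjusted p below 0.05. The VSG contrast itself called 0 genes (lowest adjusted p 0.183, 661 with an unadjusted p below 0.05). Of the 20 genes changed by bypass, 15 had a VSG difference of the same sign and 5 of the opposite sign (Alox5, Cpt1a, Ptprz1, Sec22b and Tfrc). All 20 had a smaller VSG than RYGB difference in size, a reading that their choice by the RYGB contrast favours. Cidec differed by 0.59 (0.07 to 1.10) after VSG against 1.70 after RYGB, Tfrc by -0.04 against 0.82, and Cpt1a by -0.05 against 0.62.

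Genes with the smallest p in that comparison were not all bypass genes. Nqo1, a quinone reductase driven by the stress factor NRF2, was 0.50 higher in RYGB than in Sham_RYGB. It was 0.87 lower in VSG than in Sham_VSG. Its means were 6.62 in RYGB, 6.12 in Sham_RYGB, 6.15 in VSG and 7.02 in Sham_VSG. The shams themselves thus lay apart, with Sham_RYGB minus Sham_VSG at -0.90 (limma adjusted p 0.581). The difference between effects, into which both shams enter, was 1.37 (0.75 to 1.99, adjusted p 0.406). Lap3 differed by 0.73 (0.39 to 1.06) and Ptprz1 by -0.67 (-0.97 to -0.38), both with the same adjusted p of 0.406. Plat was 0.88 higher after RYGB and 0.47 lower after VSG, a difference of 1.35 (0.63 to 2.08, adjusted p 0.695).

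**Figure D5:**
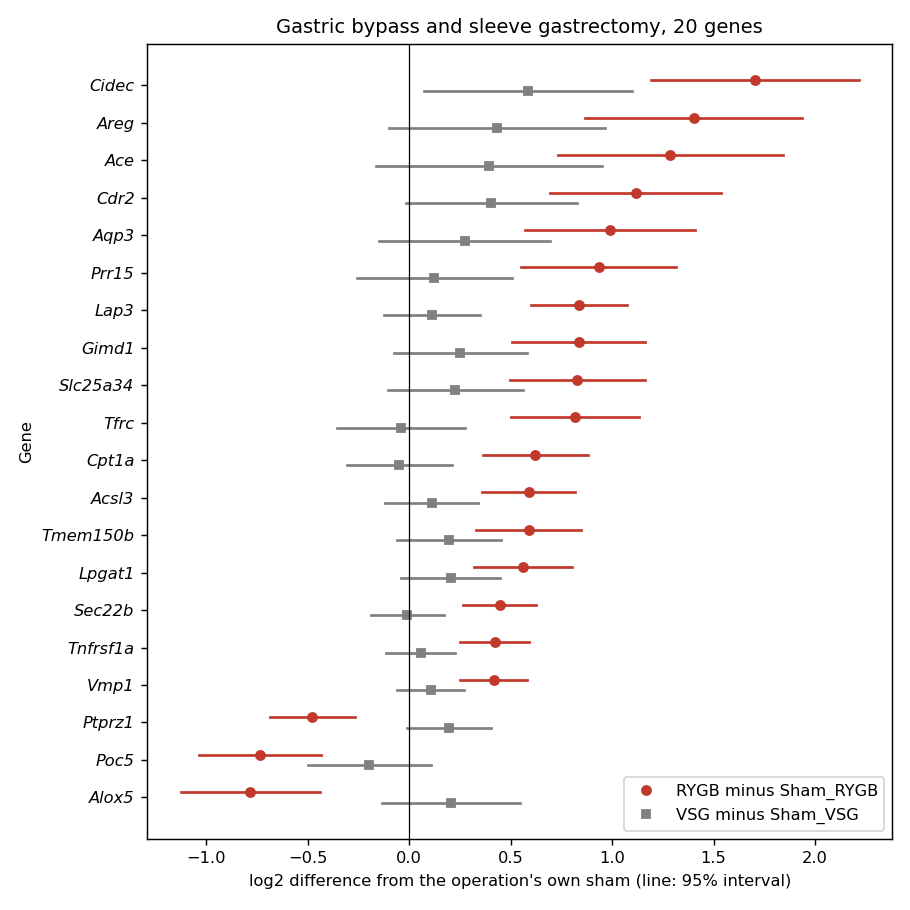
Log2 difference from the operation's own sham (x axis) with its 95% interval for the 20 genes changed by bypass (y axis), for RYGB (circles) and for VSG (squares), 6 rats per group. RYGB intervals all exclude 0 because the genes were chosen on that contrast, and the VSG intervals include 0 except for Cidec at 0.59.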

How the data were processed

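Ileum RNA of each rat was amplified (Ovation PicoSL WTA), biotin-labelled and read on one 1-colour array. The authors deposited log2 signals made by RMA, with Affymetrix Expression Console 1.3.0.187 as the tool, per the submitters' processing notes. Which arrays were normalized together, scan dates and detection calls are not given in the sources used here, so no scan batch could be examined. Quantile normalization within RMA can hide a shift of all genes.

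Of 36685 clusters, 14824 had 1 symbol, 829 several and 21032 none in the platform annotation, and 14415 of the 14557 symbols matched RefSeq by gene ID. The dimmest genes, whose mean signal lay under the 25th percentile (2.33), were not tested. In R 4.3.3, limma 3.58.1 (lmFit and eBayes) fitted 5 group means to the 30 arrays with 25 residual degrees of freedom, and two-sided p-values were adjusted by Benjamini and Hochberg over 10918 genes. The procedure was tested on simulated data with independent normal values and a single spread per gene. Those data held no tissue differences between arrays, such as those in fat and B cell markers, so the test does not cover them. Single values were tested by exact permutation over every split of the 12 arrays into 6 and 6. The labels call the arrays biological replicates, and p-values measure the spread between these rats. For arrays, their number limits the precision. The comparison, the gene lists and the alternatives were chosen with earlier results of these data known, and the lists were only counted, not tested.

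Genes were named by rule: all past the threshold, the 12 largest differences in each direction among genes that did not overlap, up to 4 members per list with an unadjusted p below 0.05, the 10 smallest p against VSG, landmarks of ileal cells, and the 3 brightest fat and B cell markers. Alternatives were other scaling, filters, cluster means, subsets of arrays, covariates, weights, a variance trend, a replicate block and leaving out each array. Plots used matplotlib 3.10.9 under Python 3.11.15.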

Additional observations from a re-analysis of the deposited data

Results flagged for a closer look

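In 18 of 284 groups of 6 values examined for the named genes (6.34%), 1 array lay far from the other 5 of its group, where chance flags about 1 in 20 groups. Sham_RYGB replicate 3 accounted for 10 low or high values of absorptive, nerve and growth genes. It was lowest for Ada (8.297, others 9.418 to 9.691), Apoa4 (9.012, others from 10.628), Aqp1 (5.766, others from 6.815), Areg (4.080, others from 4.428) and Dpep1 (9.970, others from 10.698). It was also lowest for Hadhb (7.585, others from 7.891), Hnf4g (8.293, others from 9.006), S100g (7.754, others from 8.920) and Slc22a5 (6.499, others from 7.288), and highest for the neuropeptide gene Tac1 (7.184, others up to 5.922). This array had the highest B and plasma cell marker mean, 7.85.

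Other single arrays stood apart in 1 or 2 genes each. Sham_RYGB replicate 2 was low for Fabp6 (11.842, others from 12.014) and high for Ptprz1 (3.004, others up to 2.698), Sham_RYGB replicate 1 was high for Xkr4 (3.696, others up to 3.190), and Sham_RYGB replicate 5 was low for Jchain (9.942, others from 10.404). Among RYGB arrays, replicate 1 was high for Bmal1 (6.357, others up to 5.463), replicate 4 for Pax5 (7.077, others up to 4.363), replicate 5 for Slc40a1 (6.329, others up to 5.137) and replicate 6 for Tnfrsf1a (8.982, others up to 8.686).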

How the results depend on the processing

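The count of 20 genes became 0 in the fit of the 12 arrays alone, 8 over arrays low in B and plasma cell markers, 1 without arrays high in fat cell markers, 1 with the fat cell marker mean as a covariate and 10 over arrays low in both. Leaving out 1 array gave 2 to 41. Centring each array gave 22 (21 higher, 1 lower) and, for genes that did not overlap, 87 (76 higher, 11 lower) in place of 77 (50 and 27). That count was 604, 297 and 2834 in the marker-based subsets, where smaller groups separate more easily, and 96 to 251 with 1 array left out. The comparison with VSG called 1 gene over arrays low in both marker means and 0 in every other setting run. With the replicate block 18 genes passed, 16 of them among the 20. Equal replicate numbers gave no sign of paired rats: the correlation of their deviations ran from -0.57 to 0.24, and 0 of 6 RYGB arrays correlated best with their own number. This check cannot exclude a pairing, because marker differences between arrays also enter the deviations. The subsets also hold fewer arrays per group, while the fit with the fat covariate kept all 12. The cause of these changes was not tested.

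Of 142 named genes, 11 changed sign in at least 1 setting, and none of the 20 did. Over arrays low in both marker means the differences were -0.0055 (Acaa1a), -0.0153 (Ccl28), -0.6643 (Cfd), -0.0117 (Fabp2), -0.0445 (Fabp6) and 0.0268 (Rgs13). Without arrays high in fat cell markers they were -0.4803 (Cfd) and -0.1278 (Lpl), and with the fat covariate -0.4221 (Cfd) and -0.1645 (Lpl). Over arrays low in B and plasma cell markers they were 0.0005 (Arnt), -0.0412 (Fabp6), 0.0011 (Jchain) and -0.0226 (Slc5a1), and with that covariate -0.0047 (Fabp6), 0.0918 (Jchain), -0.0890 (Slc10a2) and -0.0372 (Slc5a1). Jchain was 0.0438 with centring and -0.1305 to 0.0597 with 1 array left out, and Fabp6 was -0.0202 to 0.0334 with 1 array left out. Of 3669 values for named genes, 3436 kept direction and side of the threshold, 196 lost the call, 14 gained one and 23 turned. Dim genes such as Ptprz1 and Tmprss15 have no detection call to set a floor.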
